A study of Mus musculus with 6 samples.

Results

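Oxidative phosphorylation makes most of the ATP of a neuron, and its nuclear-encoded subunits were followed here in mouse cortical cells that carried an shRNA against Nat14, which is named as an N-acetyltransferase gene. Members were all rows of the authors' deposited table whose symbols belong to the Nduf, Sdh, Uqcr, Cox4 to Cox8 and Atp5 families, 83 of 21937 rows. They comprised 37 genes of complex I, 4 of complex II, 8 of complex III, 17 of complex IV and 17 of complex V. The rule used names alone and no measured value.

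Plasmids for the Nat14 shRNA (shNat14) or for a control shRNA (NTC) were electroporated into neuronal progenitors of the embryo at embryonic day 14.5. Cortices were dissected at embryonic day 18.5, and live GFP-positive cells were sorted for RNA sequencing, giving 3 shNat14 and 3 NTC libraries. No strain, sex or separate genotype is given in the labels, all 6 libraries went through electroporation and sorting, and the labels do not say whether libraries came from separate embryos. The p-values therefore measure only how these libraries vary, and that variation may be technical. The file holds the authors' comparison of the groups and no value per library, so no SD and no depth can be given. Fold changes are shNat14 over NTC, a direction read from the shRNA target itself, for which the authors' deposited table gave a log2 fold change of -3.31 (adjusted p = 1.2e-08).

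Electrons from NADH enter the inner mitochondrial membrane through complex I and those from succinate through complex II. They pass by ubiquinone to complex III and by cytochrome c to complex IV, which reduces oxygen. Complexes I, III and IV pump protons, and complex V, the ATP synthase, uses the returning protons to make ATP. Every complex except II joins a few subunits encoded in mitochondrial DNA to nuclear-encoded ones, and young neurons come to rely on this chain as they leave the progenitor state. Subunits that carry flavin, iron-sulphur, haem or nucleotide sites do the catalysis, and accessory subunits surround and stabilise them.

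The authors' deposited table gave none of the 83 genes an adjusted p under 0.05, the rule by which a gene was called here, and 34 of all rows, 0.155%, were called. At unadjusted p under 0.05 there was 1 gene, Cox7b2, against 5.04% of all rows in the authors' deposited table. By level, 74 of the 83 lay at or above the median of all rows, a mean log2 CPM of 1.71, and none of these 74 had an unadjusted p under 0.05, against 5.91% of all rows at or above that level. Their log2 fold changes ran from -0.52 to 0.76 with a median of 0.07 in the authors' deposited table, 43 above and 31 below 0. The median over all rows at or above the same level was 0.03, with 53.6% above 0.

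Rows of like level were then taken for comparison. The quartiles of the 74 genes by level lay at log2 CPM 6.59 and 7.90, a band with 1481 rows of the authors' deposited table. Within it, 24 of 36 genes were above 0, with a median of 0.09, and 59.9% of all rows were, with a median of 0.08. In sign and median these genes thus lay near the rows of their own level. The 36 had a median absolute log2 fold change of 0.15, and all rows of the band had 0.22. A value over 0.5 in either direction was found for 2 of the 36, 5.56%, and for 11.7% of all rows in the band. To show what size of change met the unadjusted threshold there, the 32 rows of the band with p between 0.04 and 0.06 were taken from the authors' deposited table. In absolute size the log2 fold changes of these rows ran from 0.49 to 0.90 with a median of 0.57, a ratio of 1.49. Smaller changes would mostly have missed the unadjusted threshold in these libraries, and a p above the threshold does not show equal levels.

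**Figure D1:**
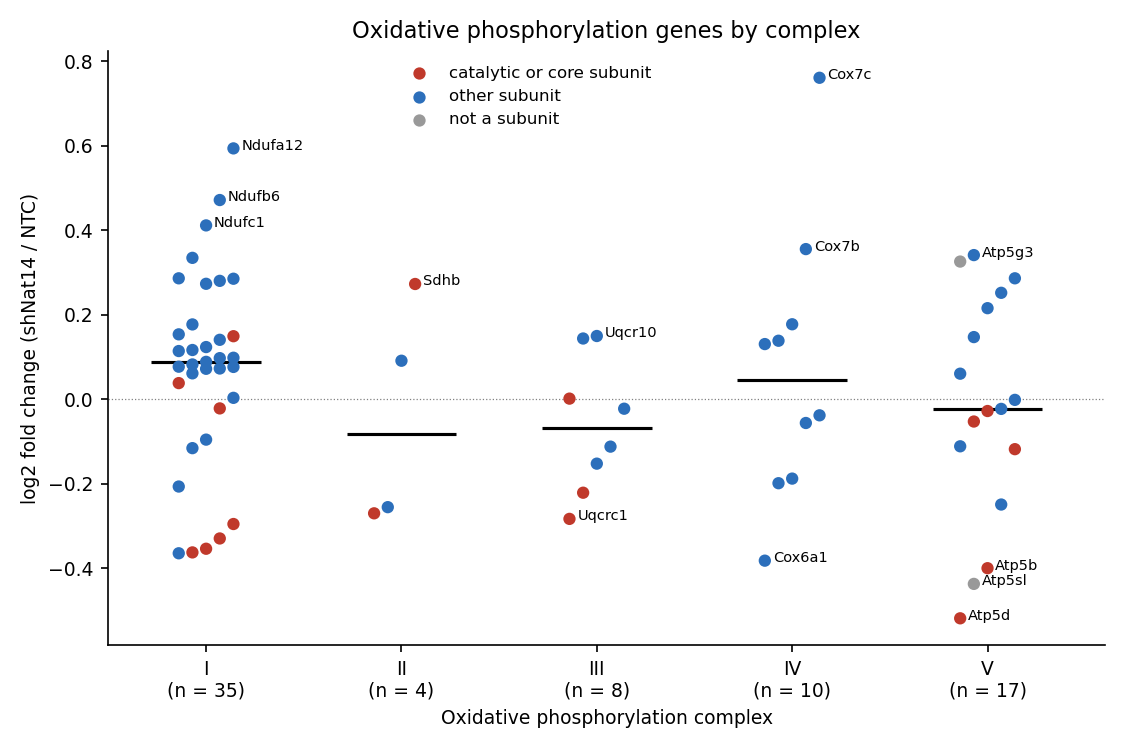
Log2 fold change (shNat14 over NTC, vertical axis) of the 74 genes whose level reached the median, grouped by complex on the horizontal axis, with 1 point per gene and a bar at the median of each complex. Cox7c at 0.76 is the highest point and Atp5d at -0.52 the lowest, and none of the points was called.

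In complex I, which oxidises NADH, 35 of 37 genes lay at or above the median level and 26 of them had a fold change above 0, with a median of 0.09 in the authors' deposited table. The 7 nuclear-encoded core subunits, which hold the flavin and the iron-sulphur clusters or line the path to ubiquinone, had a median of -0.30, 5 of them below 0. In the authors' deposited table Ndufs8, Ndufv1 and Ndufs7 stood close together at -0.36, -0.35 and -0.30 (p from 0.161 to 0.28). Ndufs1, the large iron-sulphur subunit, was at -0.02 and Ndufs3 at 0.04, while Ndufv2, another iron-sulphur protein, was at 0.15 in the authors' deposited table. So the core subunits were not of one sign, and none was called. Under the centring on GC content described further on, 1 of the 7 was above 0 and 6 were below, among them Ndufv2 at only -0.002.

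The accessory subunits of complex I had a median of 0.11, with 24 of 28 at or above the median level having a fold change above 0. Ndufa12 stood highest at 0.59 (p = 0.179), followed by Ndufb6 at 0.47 (p = 0.121) and Ndufc1 at 0.41 in the authors' deposited table. Ndufb6 was also the gene of the highest mean level in the complex, a log2 CPM of 8.95, and had its smallest p. At the other end Ndufa10 was at -0.36 (p = 0.165) and Ndufa11 at -0.21 in the authors' deposited table. The remaining accessory genes of this level lay between -0.12 and 0.33. Most accessory subunits thus sat slightly above 0, each without a p under 0.05. Ndufs5, an accessory subunit of the membrane domain, was listed at the lowest level of the table, a log2 CPM of -3.09, with a fold change of 0, and is not counted in these medians. The table does not settle why it stands there, so the entry shows neither absence nor equal expression. It was the only one of the 83 at that level, which 4537 rows of the authors' deposited table shared.

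Complex II, succinate dehydrogenase, is also an enzyme of the TCA cycle and has 4 subunits. The catalytic subunits went to opposite sides of 0, with the flavoprotein Sdha at -0.27 (p = 0.286) and the iron-sulphur subunit Sdhb at 0.27 (p = 0.439) in the authors' deposited table. In the authors' deposited table the membrane anchors Sdhc and Sdhd were at -0.26 (p = 0.334) and 0.09 (p = 0.738). The difference between Sdha and Sdhb cannot be tested without values per library.

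In complex III, the cytochrome bc1 complex, 5 of 8 genes were below 0 and the median was -0.07. Uqcrc1, a core protein with the highest mean log2 CPM of the 8 (9.10), had the lowest value and the smallest p (log2 fold change -0.28, p = 0.319) in the authors' deposited table. Its partner Uqcrc2 was at -0.22, whereas the catalytic Rieske iron-sulphur protein Uqcrfs1 was at 0.00 in the authors' deposited table. The 5 small subunits ran from -0.15 for Uqcrh to 0.15 for Uqcr10. Per kb of transcript, on the log2 CPM scale, the small subunits Uqcrb (9.38) and Uqcr11 (8.71) stood above Uqcrc1 (8.37). These 8 genes were the narrowest of the complexes in range.

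Complex IV, cytochrome c oxidase, is the complex with most subunit isoforms, some used broadly and others in muscle, lung or testis. The 10 general genes all lay well above the median level, from log2 CPM 6.56 to 8.04, and split evenly, 5 above and 5 below 0, with a median of 0.05. Cox7c, a small membrane subunit, had the highest fold change of all 74 genes (log2 fold change 0.76, p = 0.0546, adjusted p = 1) in the authors' deposited table. Cox7b followed at 0.36 (p = 0.206), and Cox6a1 was lowest at -0.38 (p = 0.171) in the authors' deposited table. Cox4i1, Cox8a, Cox5b and Cox6b1 lay from -0.20 to -0.04, and Cox5a, Cox6c and Cox7a2 from 0.13 to 0.18. Cox5a had the highest mean level of the complex.

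All 7 tissue isoforms of complex IV lay below the median level. There a prior count, if one was used, can shape a fitted fold change, so that its size is no bound. For Cox7b2, known as a testis isoform, the authors' deposited table gave a log2 fold change of -7.22 with a mean log2 CPM of -0.86 (p = 0.000119, adjusted p = 0.063). It was the only member close to the threshold, with 40 rows of smaller p. Adjusting the deposited p-values over only the 17400 rows above the lowest level gave it an adjusted p of 0.04995, just under the threshold. The gene next to it in the annotation, Gabra4, a GABA receptor subunit chosen here after its value was seen, was at 0.99 (p = 0.000746, adjusted p = 0.184) in the authors' deposited table. Gabrb1, a GABA receptor subunit that was also looked up, was at -0.07 (p = 0.877) in the authors' deposited table. The muscle and heart isoforms Cox8b, Cox6a2 and Cox7a1 were at -3.65, -2.47 and -0.53 (p = 0.258, 0.271 and 0.494) in the authors' deposited table. The testis isoforms Cox8c and Cox6b2 were at -1.97 (p = 1) and 0.47 (p = 0.516), and Cox4i2, best known from lung, at -0.40 (p = 0.483) in the authors' deposited table. Of the 6 muscle markers examined, all lay below the median level and none was called. Myl1, Myh7, Acta1 and Myh6 were above 0, from 0.55 to 1.35, Ckm was at -2.32, and Tnnt2 was at the lowest level.

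**Figure D2:**
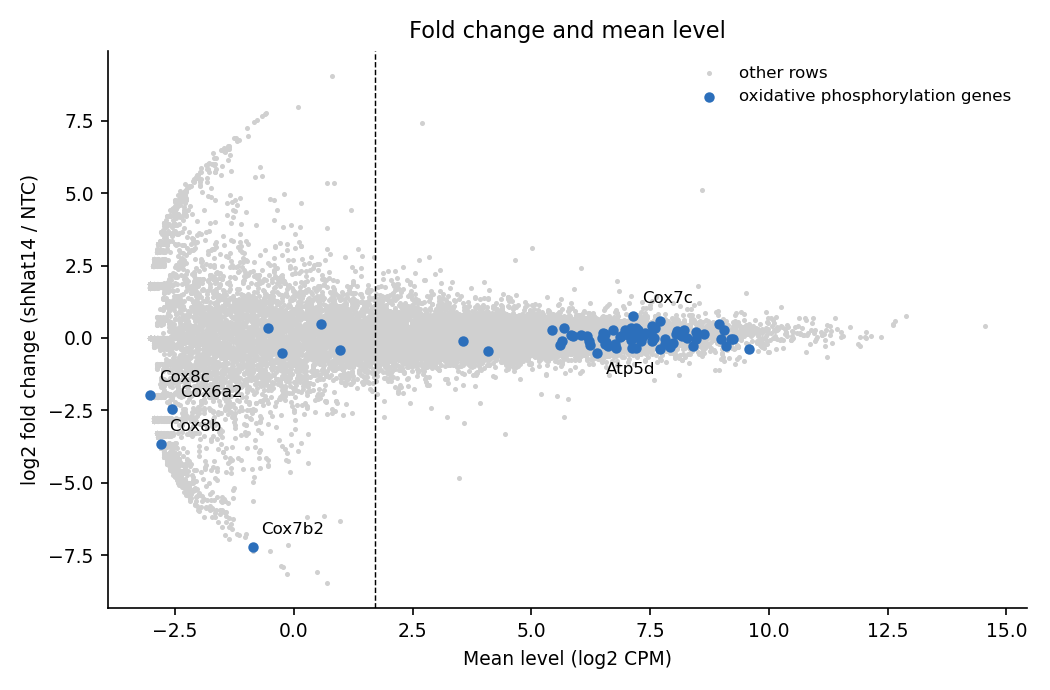
Log2 fold change (vertical axis) against mean level in log2 CPM (horizontal axis) for all rows above the lowest level in grey and for oxidative phosphorylation genes in blue, with a dashed line at the median level of 1.71. The blue points right of the line stay within -0.52 and 0.76, and Cox7b2 at -7.22 lies left of it.

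Levels of different genes were compared per length, as mean log2 CPM minus the log2 of the transcript length in kb. On this scale each general gene stood far above its paralog. Cox6a1 was at 8.52 and Cox6a2 at -2.01, the widest gap, a difference of 10.53 on the log2 scale. The smallest gap, 6.95, was that of Cox4i1 at 8.39 and Cox4i2 at 1.44. Cox7b at 7.60 was 7.58 above Cox7b2 at 0.02. Ndufa4, counted with complex I by its name but now known to sit in complex IV, was at 9.29, and its paralog Ndufa4l2, which is induced by low oxygen and is no subunit of complex I, at -0.45. In fold change Ndufa4 was at 0.08 and Ndufa4l2 at 0.33 (p = 0.781 and 0.745) in the authors' deposited table.

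**Figure D3:**
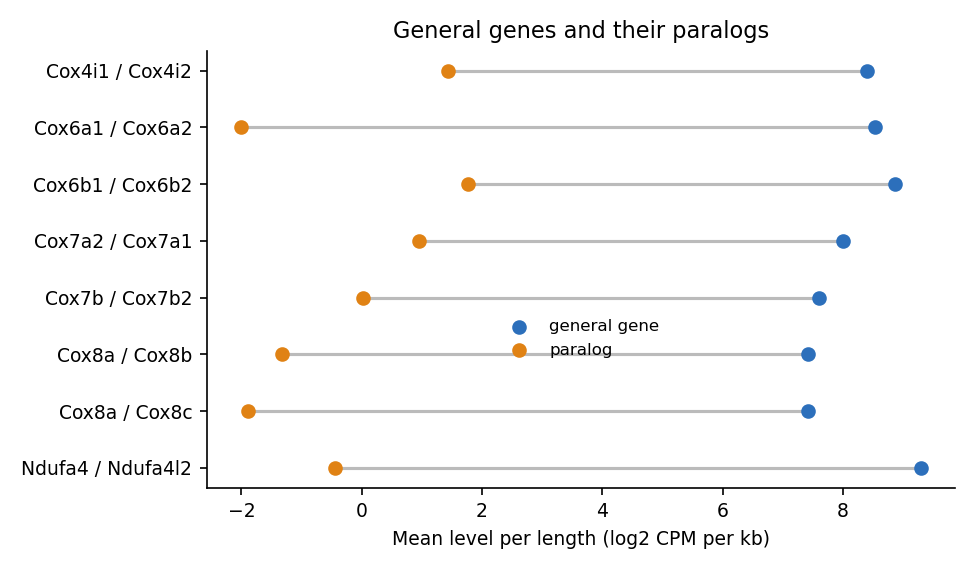
Mean level per length (log2 CPM per kb, horizontal axis) of 7 general genes in blue and their 8 low paralogs in orange, with 1 pair per row and Cox8a shown with both Cox8b and Cox8c. In each pair the general gene is higher, by 6.95 for Cox4i1 over Cox4i2 up to 10.53 for Cox6a1 over Cox6a2.

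In complex V the 5 subunits of the F1 head, which carries the catalytic sites, all had fold changes below 0. Atp5d, the delta subunit of the central stalk, was lowest of all 74 genes (log2 fold change -0.52, p = 0.112) in the authors' deposited table. Atp5b, the catalytic beta subunit and the gene of the highest mean level among all 83 (log2 CPM 9.57), was at -0.40 (p = 0.119) in the authors' deposited table. Atp5e was at -0.12, Atp5a1, the alpha subunit, at -0.05 and Atp5c1, the gamma subunit that turns within the head, at -0.03 in the authors' deposited table. Atp5d and Atp5b thus stood apart from the other three, and neither was called. The shared sign did not hold under the centring on GC content described further on, which put Atp5a1 at 0.02 and Atp5e at 0.005. With it complex V went from 7 genes above and 10 below 0 to 10 above and 7 below.

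The peripheral stalk, which holds the head still, was near 0, with Atp5o at 0.22, Atp5h at 0.06, Atp5f1 at -0.02 and Atp5j at -0.11 in the authors' deposited table. Proton flow turns a ring of c subunits, encoded by the 3 genes Atp5g1, Atp5g2 and Atp5g3 with near-identical mature proteins. These genes differed in sign, with Atp5g3 at 0.34 (p = 0.207), Atp5g1 at 0.15 (p = 0.667) and Atp5g2 at -0.25 (p = 0.411) in the authors' deposited table. Per length Atp5g3 was the highest of them at 7.69, followed by Atp5g2 at 6.38 and Atp5g1 at 6.09. Of the small membrane subunits, Atp5k and Atp5l were at 0.29 and 0.25 and Atp5j2 at 0.00 in the authors' deposited table. Atp5s and Atp5sl match the name rule but are now listed as Dmac2l and Dmac2, and they are no subunits of the enzyme. They were at 0.33 and -0.44 (p = 0.286 and 0.259) in the authors' deposited table.

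Put side by side, the catalytic and core subunits lay lower than the rest, a grouping over complexes I, II, III and V that was made after their values were seen. From complex V it took all 5 subunits of the F1 head, among them Atp5d of the central stalk, and not only those with catalytic sites. Of the 17 genes in the grouping 13 were below 0, with a median of -0.22. Of 55 other subunits at or above the median level 17 were below 0, with a median of 0.10. Genes are not replicates, so no test is given. The GC content of the transcripts moved with the fold change. Spearman's rho across the 74 genes was -0.418, and across 7900 other rows in the same range of levels it was -0.408, for genes that share the same 6 libraries. The catalytic and core subunits had a median GC content of 53.8%, and the other subunits 51.4%. When the median fold change of other rows in the same decile of GC content was subtracted, the medians were -0.13 and 0.10. With that centring 13 of 17 and 15 of 55 were below 0. In complex I the median of the core subunits went from -0.30 to -0.17 and that of the accessory subunits from 0.11 to 0.19. For transcript length rho was -0.220 among the 74 and 0.134 among the other rows.

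**Figure D4:**
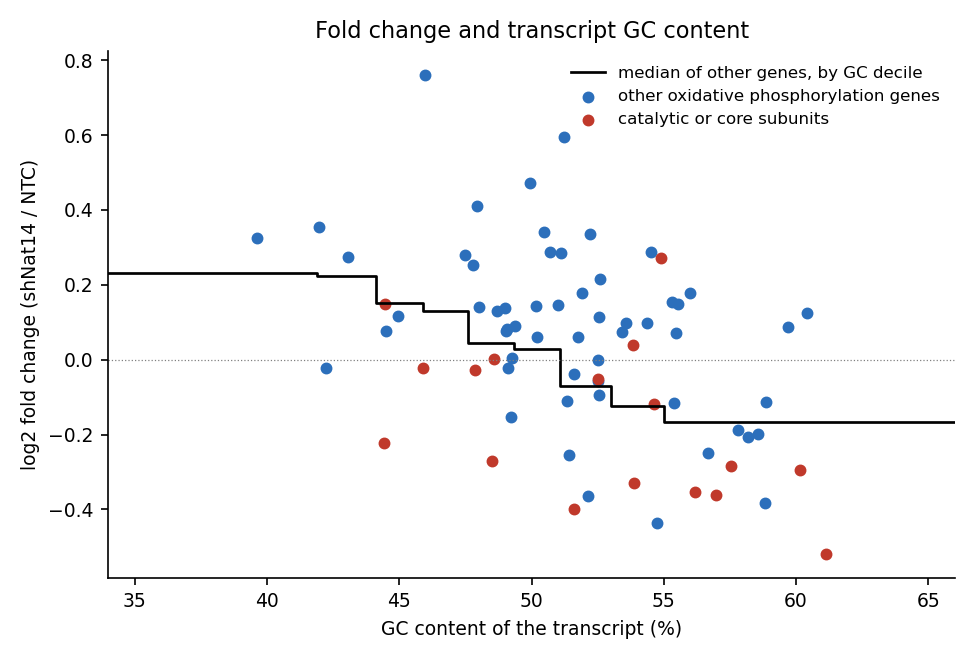
Log2 fold change (vertical axis) against transcript GC content in percent (horizontal axis) for the 74 genes, with catalytic or core subunits in red and others in blue, and a step line at the median of 7900 other rows in each decile of GC content. The line goes from 0.23 in the lowest decile to -0.17 in the highest.

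The promoters of these genes are known for sites of the regulators NRF1, GABPA and YY1, and promoter sequence was examined because the rule for membership did not use it. RefSeq sequences of the 250 bases before the start site, build GRCm38.p6, were found for 68 of the 83 genes. The comparison was 17492 protein-coding genes, which were not matched to the members by level. On either strand the NRF1 motif GCGCNTGCG was present in 17 of 68, 25%, against 7.99% of all. The ZNF143 motif ACTACANTT, searched after the promoters had been read, was present in 4 of 68, 5.88%, against 1.93% of all. Because that search followed a reading of the same promoters, the contrast between these shares is no evidence of enrichment. The GABPA motif CCGGAAGT was found in 3 of 68, 4.41% (4.26% of all), and the YY1 motif AAGATGGC in 2 of 68, 2.94% (1.77% of all). In 0 promoters of these genes did matches of different motifs share bases. A match describes letters and is no evidence of binding.

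The 4 genes with the ZNF143 motif included both the highest and the lowest fold change of the 74, so the windows around it are shown, with the motif in capitals. All run 5′ to 3′ in the direction of the gene.
Cox7c (chr13:86046884-86046940, minus strand): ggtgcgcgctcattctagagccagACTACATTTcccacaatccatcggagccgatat
Cox7b (chrX:106015594-106015650, plus strand): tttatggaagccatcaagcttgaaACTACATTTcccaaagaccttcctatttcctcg
Uqcr10 (chr11:4704370-4704426, minus strand): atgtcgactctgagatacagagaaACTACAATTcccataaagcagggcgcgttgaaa
Atp5d (chr10:80142169-80142225, plus strand): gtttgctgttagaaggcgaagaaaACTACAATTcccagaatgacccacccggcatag

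The motif began 121 bases before the start site in Cox7c, 82 in both Cox7b and Atp5d and 58 in Uqcr10. With fold changes of 0.76, 0.36, 0.15 and -0.52 for Cox7c, Cox7b, Uqcr10 and Atp5d in the authors' deposited table, genes that share the motif differed in sign and none was called. Subunit genes with the NRF1 motif also lay on both sides of 0, from Cox6a1 at -0.38 and Sdha at -0.27 to Ndufb4 at 0.33 and Ndufa12 at 0.59 in the authors' deposited table. The windows of these lowest and highest genes are given with the motif, on either strand, in capitals.
Cox6a1 (chr5:115349096-115349134, minus strand): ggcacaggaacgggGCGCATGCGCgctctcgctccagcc
Sdha (chr13:74350314-74350352, minus strand): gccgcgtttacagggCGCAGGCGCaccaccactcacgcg
Ndufa12 (chr10:94198900-94198938, plus strand): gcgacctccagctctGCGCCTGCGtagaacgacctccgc
Ndufb4 (chr16:37654535-37654573, minus strand): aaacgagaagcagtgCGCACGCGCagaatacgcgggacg

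The 250 bases before the start site of Cox7b2, the member of smallest p, held none of the 4 motifs and are shown for comparison with its general paralog Cox7b above.
Cox7b2 (chr5:71548206-71548455, minus strand): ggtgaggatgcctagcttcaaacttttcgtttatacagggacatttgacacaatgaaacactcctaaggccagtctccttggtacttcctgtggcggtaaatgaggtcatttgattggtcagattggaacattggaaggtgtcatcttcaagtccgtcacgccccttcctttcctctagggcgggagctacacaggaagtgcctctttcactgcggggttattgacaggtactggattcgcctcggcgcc

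None of the 13 regulators examined was called, and the gene for ZNF143 was not among those examined. Yy1 was at 0.51 (p = 0.225) in the authors' deposited table. Nrf1 was at 0.11 and Tfam, which packages mitochondrial DNA, at 0.12 in the authors' deposited table. The coactivator Ppargc1a had the smallest p of the 13 regulators examined (log2 fold change 0.65, p = 0.128), and among those below 0 it was Gabpb1 (-0.10, p = 0.704) in the authors' deposited table. Gabpa, its partner, was at -0.10 (p = 0.718) in the authors' deposited table. Gabpa overlaps Atp5j, the F6 subunit, on the opposite strand by 182 bases of exon, 16.3% of the Atp5j exons. Reads in those shared bases cannot be separated without strand, which is not given in the sources used here.

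Genes that build, feed or neighbour the complexes were compared as lists chosen by function, none tested as a list. Their counts at unadjusted p under 0.05 stand beside 5.04% of all rows and 5.91% of rows at or above the median level. Of the subunits that the name rule misses, 5 were found and none had an unadjusted p under 0.05. Their lowest and highest values lay inside the range of the 74 genes, with the acyl carrier Ndufab1 at 0.48 (p = 0.148) and the cytochrome c1 gene Cyc1 at -0.38 (p = 0.13) in the authors' deposited table. The 13 subunits encoded in mitochondrial DNA were not analysed here. Of 15 assembly factors of complex I, 1 had an unadjusted p under 0.05, Ecsit at -0.77 (p = 0.00701, adjusted p = 0.557) in the authors' deposited table. The factor of smallest p above 0 was Ndufaf6, listed as 2310030N02Rik, at 0.63 (p = 0.122) in the authors' deposited table.

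Of 24 assembly factors of complex IV, 3 had an unadjusted p under 0.05 (5.04% of all rows did) and none was called. Cox11, which delivers copper to the core of the enzyme, was at 1.12 (p = 0.00239, adjusted p = 0.367) in the authors' deposited table. Cox15, an enzyme that makes the haem A of complex IV, was at 1.21 (p = 0.0229), and Coa5, listed as 6330578E17Rik, at -0.66 (p = 0.0288) in the authors' deposited table. By comparison Cox10, the other haem A enzyme, and the copper proteins Sco1 and Cox17 were at -0.05, -0.02 and 0.36 (p from 0.352 to 0.943) in the authors' deposited table. The factors of complexes II, III and V, 4, 6 and 4 genes, had no p under 0.05.

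Of 16 genes of the TCA cycle and pyruvate dehydrogenase, 2 had an unadjusted p under 0.05 (5.91% of rows at their level did), both below 0. Idh3g, a subunit of isocitrate dehydrogenase, was at -0.53 (p = 0.0299) and Cs, citrate synthase, at -0.67 (p = 0.031) in the authors' deposited table. The TCA gene of smallest p above 0 was Dld at 0.35 (p = 0.191) in the authors' deposited table. Among 11 carriers and channels Ucp2, the uncoupling protein, had the smallest p below 0 (-0.82, p = 0.0659) and Etfa, an electron transfer flavoprotein, above 0 (0.45, p = 0.201) in the authors' deposited table. The mitochondrial ribosome, which translates the mitochondrially encoded subunits, had a median of 0.01 over 76 genes, 3 of them at unadjusted p under 0.05 and none called.

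Glycolysis genes stood below 0 in 15 of 17 and above it in 2, with a median of -0.21, where 53.6% of rows at or above the median level were above 0. Their median GC content was 54.1%, and other rows in that decile of GC content had a median of -0.12. The genes with an unadjusted p under 0.05 were 2 of 17, against 5.91% of rows at that level. These were the aldolases Aldoc at -0.67 (p = 0.0321) and Aldoa at -0.48 (p = 0.0488), and Pfkp had the smallest p above 0 (0.79, p = 0.0611) in the authors' deposited table. Aldoc is also strong in astrocytes. Astrocyte markers were below 0 in all 7 of those at or above the median level, from -1.15 for Aldh1l1 to -0.05 for Slc1a2 in the authors' deposited table. Agt, the eighth, was called at a low level (-6.33, adjusted p = 6.99e-06) in the authors' deposited table. An unadjusted p under 0.05 was found for 4 of 8 astrocyte and 4 of 8 microglia markers, all below 0. Over all rows the share was 5.04%. Of the 8 microglia markers, none of them called, 6 were below 0, from -1.62 for C1qb to -1.04 for Tyrobp in the authors' deposited table. The others, C1qc and Ptprc, were at 0.25 and 0.51 in the authors' deposited table. Both lay below the median level, as did Aif1 and Cx3cr1 among the 6 below 0. All 5 endothelial markers were above 0 and none was called. They ran from 0.18 for Cldn5, the one at or above the median level, to 4.98 for Emcn (p = 0.0137), with Kdr at 1.89 and Pecam1 at 2.24 in the authors' deposited table. Of the erythroid markers Alas2 was at -1.36 (p = 0.0359), none was called, and Hba-a1 and Hba-a2 were at the lowest level in the authors' deposited table. Markers of excitatory cortical neurons split 5 and 5, from -0.24 to 0.43, and Neurod6, a transcription factor of these neurons, had a log2 CPM of 11.30 in the authors' deposited table. The part of these marker shifts in the fold changes of the oxidative phosphorylation genes was not tested, and in bulk libraries fewer cells of a type and less RNA per cell cannot be told apart.

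**Figure D5:**
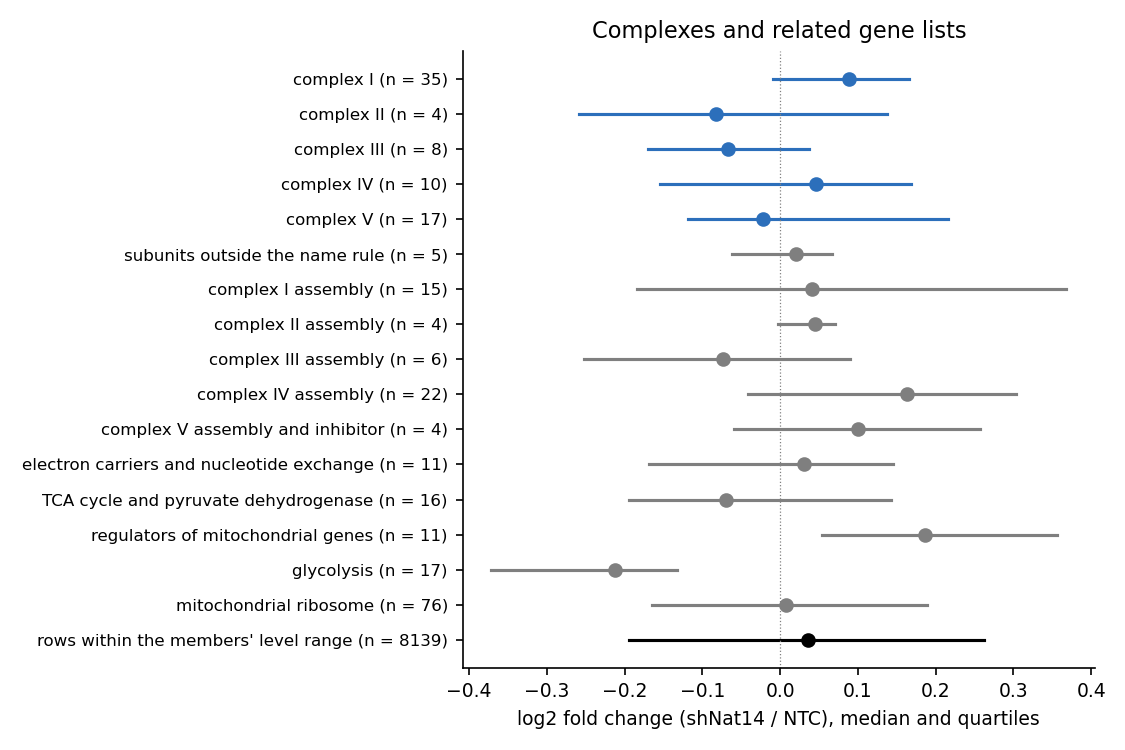
Median (point) and quartiles (line) of the log2 fold change (horizontal axis) for those genes of each complex whose level reached the median in blue, each related list in grey and all 8139 rows within the range of levels of the oxidative phosphorylation genes in black. The medians of the 5 complexes lie from -0.08 to 0.09, and that of glycolysis is at -0.21.

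The 3 X-linked members Ndufb11, Ndufa1 and Cox7b were at 0.11, 0.28 and 0.36 in the authors' deposited table. Xist, which is expressed from the inactive X, was called at 5.12 (adjusted p = 0.0112) in the authors' deposited table, and the 288 X-linked rows in the same range of levels had a median of 0.10. Its part in these values was not tested.

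By annotation 25 of the 83 genes share exon bases with another gene, 23 of them on the opposite strand and 4 on the same strand. Among the genes described, Ndufb6 shares 257 bases with Smim27, and Atp5o shares 287 bases with Donson on its own strand. How reads in shared bases were assigned is not known, so these values carry that uncertainty, and many subunits also have processed pseudogenes of near-identical sequence.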

How the data were processed

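Live GFP-positive cortical cells from 3 shNat14 and 3 NTC libraries were sequenced. The deposited table is the authors' own comparison. Per the file headers it holds a log2 fold change, a mean level in log2 CPM, a p-value and an adjusted p-value for each symbol, all used as deposited by the authors. Per the submitters' processing notes, the tools were DESeq, HTSeq 0.5.4p1, SAMtools 0.1.19 and TopHat2 2.0.8 and the build hg19, without roles. That build is human and the symbols are mouse, so coordinates here come only from RefSeq (GRCm38.p6). Filters, prior count, strand setting and test of the authors were not given in the sources used here. Adjusted p-values matched a Benjamini-Hochberg adjustment over all 21937 rows, with a largest difference of 4.05e-05.

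Genes were called at adjusted p under 0.05. Length and GC content were medians over basic protein-coding transcripts of GENCODE M21, found for all 83 members. Members of each complex were named in full by highest level, highest, lowest and smallest-p value and isoform set. The values of 1 member and 1 marker are not reported here. Members and lists were chosen with earlier results of these data known. Older symbols were matched through RefSeq. The adjustment was tested on simulated p-values. Alternatives were other thresholds, adjustments, level filters and centrings, and GC centring, which was added after the values were seen. Python 3.11.15, numpy 2.4.6, pandas 2.3.3, scipy 1.17.1 and matplotlib 3.10.9 were used.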

Additional observations from a re-analysis of the deposited data

How the results depend on the processing

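The count of called members was 0, and it became 1, Cox7b2, at a threshold of 0.1 and when adjusted over rows above the lowest level. The latter adjustment also raised the calls over all rows from 34 to 43. After Bonferroni correction, and when adjusted over the better expressed rows (at or above the median level), it was 0. The count at unadjusted p under 0.05 was 1, and it was 2 at a threshold of 0.1 (Cox7b2 and Cox7c) and 0 among members at or above the median level. At 0.05 the shares were 5.04% of all rows and 5.91% of rows at or above the median level. Shares of all rows at 0.1 were not computed, so the counts at 0.1 stand without a comparison. The median log2 fold change of complex IV was -0.19 over all 17 genes and 0.046 without its 7 low isoforms. With GC centring the median of the complex I core subunits went from -0.30 to -0.17 and that of its accessory subunits from 0.11 to 0.19. The medians of all members, of the other complexes, of the catalytic and core subunits together and of the other subunits moved by less than 0.1 under each alternative run for them, and the median of all members ran from -0.02 to 0.07. No paired analysis was possible because single libraries have no values in this file, and for the same reason no library was left out in turn. Depth per library is unknown, so no detection limit is given.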
